A study of Mus musculus with 12 samples.

Results

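The 10 genes described here encode A20 (Tnfaip3), its partners in the ubiquitin-editing complex (Tnip1, Tax1bp1, Itch, Rnf11), the ubiquitin ligase TRAF6, the enzymes that serve it (Ube2n, Ube2v1) and 2 further ligases of lymphocyte signalling (Cblb, Peli1). They were chosen by symbol, as proposed targets of the Mirc11 microRNAs and their partners, and all 10 were found among the 50674 genes of the count table and among the 17457 genes tested. Mirc11 is a microRNA cluster on chromosome 8 whose products are miR-23a, miR-27a and miR-24. The cells were natural killer (NK) cells from the spleen of C57BL/6 mice, grown in interleukin-2 (IL-2) in all groups, so no group shows these genes without that cytokine. Wild-type and Mirc11-/- cells were each left untreated or stimulated through NKG2D, an activating receptor that recognises stress ligands on target cells, for 6 h. Each of the 4 groups had 3 biological replicates, 12 libraries of polyadenylated RNA in all. The age of the mice, the design of the deleted allele and the stimulating agent are not given in the sources used here.

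Ubiquitin chains joined through lysine 63 carry signals from receptors to the kinases TAK1 and IKK, and so to NF-kappaB and AP-1. TRAF6 builds such chains with the conjugating enzyme Ubc13 (Ube2n) and its non-catalytic partner Uev1a (Ube2v1). A20 removes or edits them, and acts with the adaptors ABIN1 (Tnip1) and TAX1BP1 and with the ligases ITCH and RNF11; Tnfaip3 is itself a well-known NF-kappaB target and forms a negative feedback loop. A microRNA pairs through its seed, bases counted from its 5′ end, with the 3′ untranslated region (UTR) of a message and lowers its stability or translation, so protein could change where the message does not.

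The mature strands of the deleted cluster are printed because their seeds define which messages could be direct targets. The sequences are from RefSeq (GRCm38.p6) and the capitals mark the seed, bases 2 to 8. They lie on the plus strand at chr8:84208563-84208583 (miR-23a-3p), chr8:84208727-84208747 (miR-27a-3p) and chr8:84208875-84208896 (miR-24-3p). The seeds of miR-27a and miR-24 also occur outside the cluster, in miR-27b-3p at chr13:63300760-63300780 and in the identical miR-24-3p of Mir24-1 at chr13:63301251-63301272, which the labels do not name as deleted. The seed letters of miR-23a likewise occur in the Mir23b hairpin at chr13:63300484-63300557, also outside the cluster.
miR-23a-3p: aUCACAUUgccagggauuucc
miR-27a-3p: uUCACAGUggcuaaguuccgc
miR-24-3p: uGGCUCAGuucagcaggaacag
miR-27b-3p: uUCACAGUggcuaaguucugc

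In the 3′ UTRs of GENCODE vM21 (GRCm38), the sequence complementary to bases 2 to 8 of at least 1 of the 3 microRNAs was present in 7 of the 10 genes, with 12 sites in all. The members' 3′ UTRs were long, with a median of 2105 bases against 1210 over all 12787 UTRs searched, and 41.4% of all UTRs held at least 1 such site. Tnfaip3 and Ube2n carried 3 sites each, Itch carried 2, and Traf6, Cblb, Rnf11 and Ube2v1 carried 1 each. No site of this length was found in Tnip1, Tax1bp1 or Peli1, whose UTRs measured 752, 706 and 1800 bases. With the shorter match to bases 2 to 7, all 10 genes had a site, as did 69.6% of all UTRs. These are matches of letters and do not show that a site is used.

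The windows of 22 bases around the sites of Tnfaip3, Traf6 and Ube2n are shown, since Tnfaip3 is the member with a site for each of the 3 microRNAs, Traf6 is the central ligase and Ube2n has 3 sites for one of them. Each is given 5′ to 3′ on the strand of the message, and the capitals mark the bases that pair with the seed. A site for miR-23a is present in 16.9% of all UTRs, one for miR-27a in 18.1% and one for miR-24 in 19.3%. Among UTRs of a length like that of Tnfaip3 the shares are 19.4%, 21.8% and 23.2%, 32.9% of UTRs of a length like that of Ube2n hold a site for miR-27a, and 39.2% of those like Traf6 hold one for miR-24. The sites of Tnfaip3 lie at chr10:19001058-19001064, chr10:19002666-19002672 and chr10:19002394-19002400 on the minus strand, in the order printed. That of Traf6 lies at chr2:101699694-101699700, and those of Ube2n at chr10:95542594-95542600, chr10:95544043-95544049 and chr10:95545079-95545085, all on the plus strand; the bases named for Ube2n are counted from the start of its UTR.
Tnfaip3, miR-23a site: attttcattgttAATGTGAaat
Tnfaip3, miR-27a site: attcacagtggtACTGTGAtcc
Tnfaip3, miR-24 site: tggcagcagttcCTGAGCCtgg
Traf6, miR-24 site: agaagcccagtgCTGAGCCaca
Ube2n, miR-27a site at base 282: aaagtacaaggcACTGTGAatg
Ube2n, miR-27a site at base 1731: gccctacctgatACTGTGAaat
Ube2n, miR-27a site at base 2767: tgattcacttctACTGTGAgat

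The promoters of Tnfaip3 and Tnip1 are printed because these genes rose with stimulation and are the members whose promoter window held the NF-kappaB consensus, a degenerate motif of 10 bases. The windows are the 250 bases before a RefSeq start site (GRCm38.p6), read on the strand of the gene, with matches on either strand in capitals. That of Tnfaip3 is chr10:19015411-19015660, minus strand, with matches that begin 125 and 12 bases before the start, and that of Tnip1 is chr11:54962941-54963190, minus strand, with 3 matches that overlap one another and begin 58, 57 and 56 bases before it. The motif was found in 7.25% of the 32851 promoter windows. A second window of Tnfaip3 held no match, nor did those of Tax1bp1, Traf6, Cblb, Peli1, Ube2v1 and Ube2n. Windows were found for 8 of the 10 genes, Itch and Rnf11 being the others. A match describes the letters in the window and not binding.
Tnfaip3 promoter: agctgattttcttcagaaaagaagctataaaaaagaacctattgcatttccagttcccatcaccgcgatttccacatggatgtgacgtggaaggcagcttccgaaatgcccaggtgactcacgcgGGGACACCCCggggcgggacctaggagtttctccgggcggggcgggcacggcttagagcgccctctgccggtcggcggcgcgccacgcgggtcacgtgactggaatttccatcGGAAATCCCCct
Tnip1 promoter: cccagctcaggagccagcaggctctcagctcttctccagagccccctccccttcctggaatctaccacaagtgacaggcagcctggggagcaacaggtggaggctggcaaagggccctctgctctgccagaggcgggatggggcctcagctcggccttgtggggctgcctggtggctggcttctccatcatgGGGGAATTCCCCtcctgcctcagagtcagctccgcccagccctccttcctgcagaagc

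The libraries held 15139281 to 25342991 counts each. Over the members and groups, the coefficient of variation between replicates ran from 0.359% to 15.4% with a median of 5.54%, while counting error alone gave 1.05% to 3.71%. Of the primary transcripts of the cluster, Mir27a was counted in 5 of 6 wild-type libraries, with at most 4 counts, and in 0 of 6 Mirc11-/- libraries, which checks the genotype only weakly. Of 8 NK cell markers, 7 were matched by symbol, namely Gzmb, Prf1, Ncr1, Klrb1c, Klrk1, Eomes and Tbx21, and Gzmb made up most of their summed level. This sum was 9517 to 11630 CPM (counts scaled by the effective library size) in unstimulated wild-type, 10451 to 11373 in unstimulated Mirc11-/-, 6433 to 7734 in stimulated wild-type and 3396 to 5498 in stimulated Mirc11-/- libraries. Summed markers were 38.2 to 113 CPM for T cells (7 genes), 5.17 to 19.4 for macrophages and monocytes (7 genes), 76.5 to 207 for dendritic cells (7 genes, mostly Itgax) and 15.9 to 109 for neutrophils and mast cells (7 genes, mostly Kit). In the group means, 5 of the 7 macrophage and monocyte genes were under 1 CPM in every group, with Cd68 (up to 9.22) and Cd14 (up to 9.27) above it. Of the dendritic cell genes 3 to 4 were under 1 CPM, with Itgax, Zbtb46 (up to 24.2) and Xcr1 (up to 8.64) above it, and of the neutrophil and mast cell genes 4 to 5, with Kit (up to 106) and Cpa3 (up to 6.99) above it. Vomeronasal receptor genes, which encode pheromone receptors of the nose, summed to 13.6 to 17.4 CPM in unstimulated wild-type, 14.6 to 17.0 in unstimulated Mirc11-/-, 24.8 to 41.5 in stimulated wild-type and 49.1 to 85.4 in stimulated Mirc11-/- libraries, the highest in replicate 1. In bulk RNA, a different share of cells and a different amount of RNA per cell cannot be told apart.

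Longer messages yield more counts, so levels were compared between genes as CPM per kilobase of merged exons. In unstimulated wild-type cells the order of mean levels per kilobase was Cblb (37.5), Tax1bp1 (36.3), Ube2v1 (28.3), Tnfaip3 (21.0), Tnip1 (19.3), Itch (13.7), Ube2n (13.4), Rnf11 (11.6), Traf6 (8.14) and Peli1 (6.01). The neighbours Cblb and Tax1bp1, Tnfaip3 and Tnip1, and Itch and Ube2n overlapped between libraries, and the other neighbours did not. In stimulated wild-type cells Tnfaip3 came first (47.9), ahead of Tax1bp1 (41.7), Cblb (36.3) and Tnip1 (33.9), with no overlap among these 4. Traf6 was last (7.47), just under Peli1 (9.07). Stimulated Mirc11-/- cells also had Tnfaip3 first (53.8) and Traf6 last (7.41), neither overlapping its neighbour, whereas Cblb (35.4) and Tax1bp1 (30.7) overlapped, as did Tax1bp1 and Tnip1 (26.7). In unstimulated Mirc11-/- cells Ube2n (14.6), Itch (14.5) and Tnip1 (14.3) were level with one another. The level of Ube2v1 is uncertain: 66.2% of its 31-base stretches also occur in transcripts of other genes, mostly in Gm20431, which overlaps it on the same strand and held 7353 counts against 15813.

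**Figure D1:**
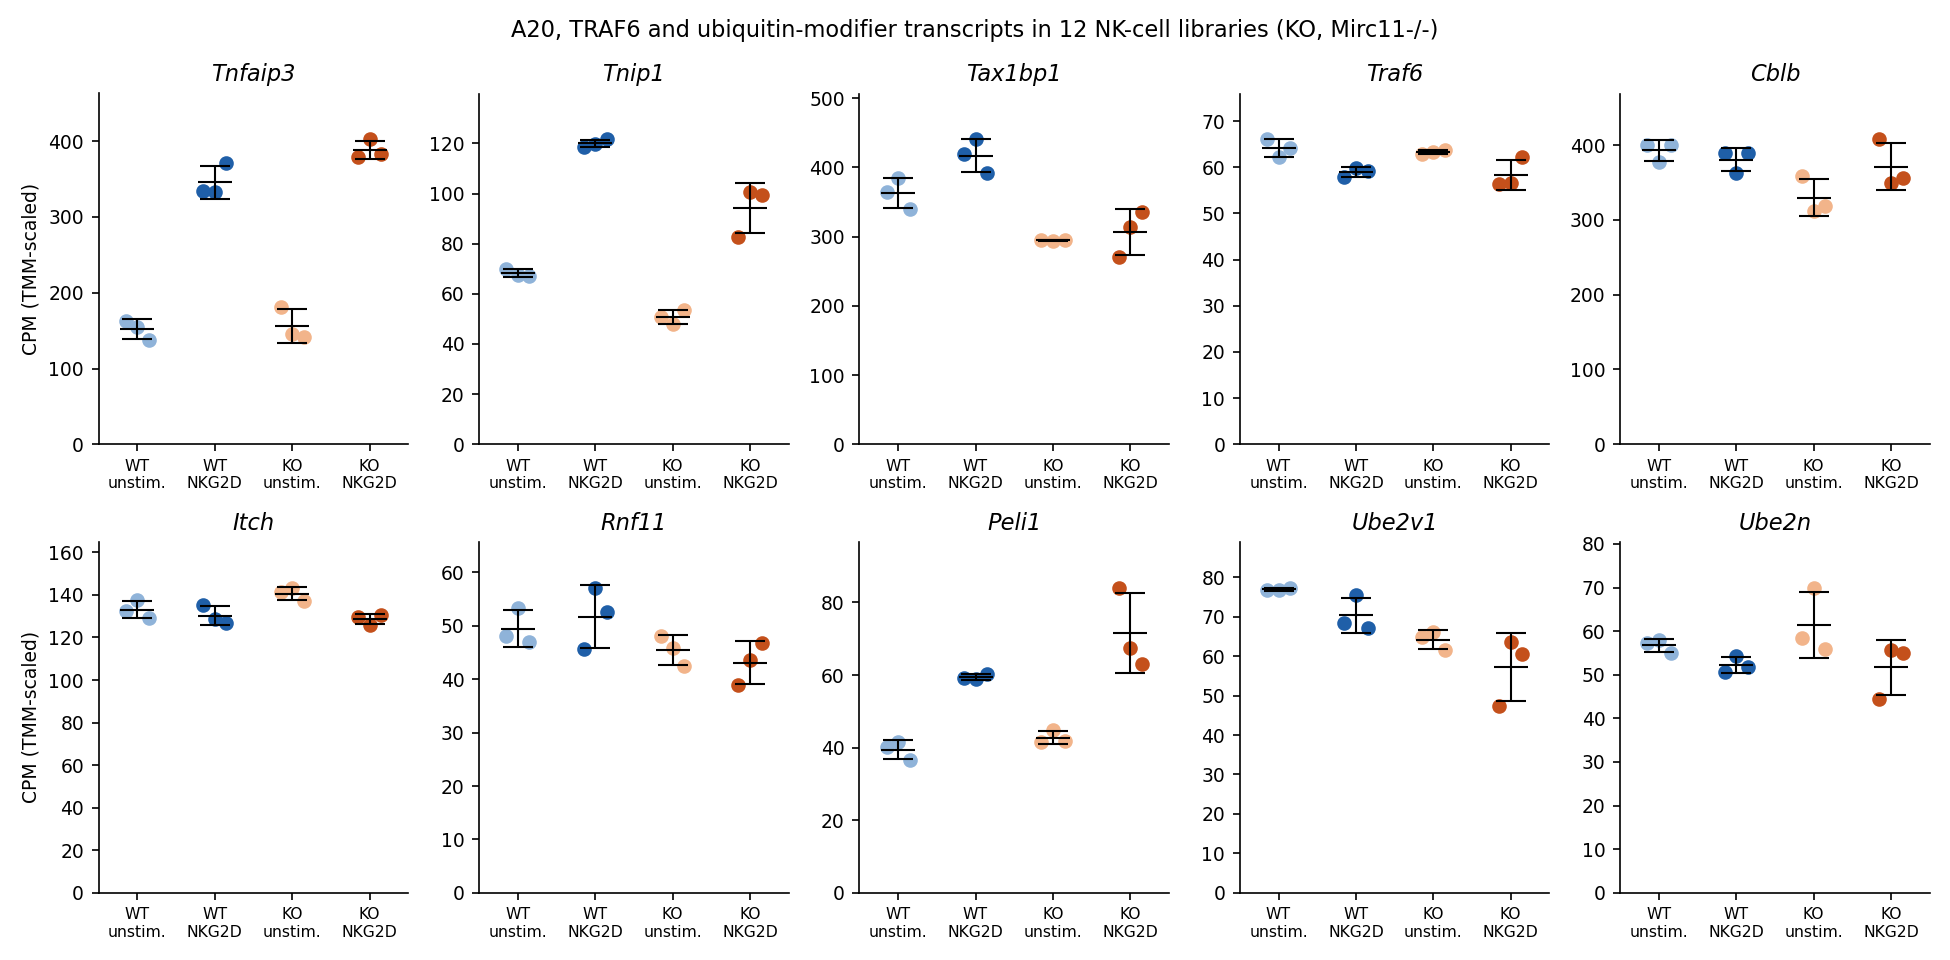
Level of each of the 10 genes in the 12 libraries, in CPM, by group, with points for libraries and lines for the group mean ± SD. Tnfaip3, Tnip1 and Peli1 are higher in all stimulated than in all unstimulated libraries of the same genotype. Tnip1, Tax1bp1 and Ube2v1 are lower in all Mirc11-/- than in all wild-type libraries of the same treatment. Of all genes, 49% (wild-type) and 54% (Mirc11-/-) had no overlap with stimulation. Between genotypes it was 17.8% without stimulation and 32.6% with it.

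Stimulation for 6 h raised 3 of the 10 genes in wild-type cells, Tnfaip3, Tnip1 and Peli1, and lowered 0. Of all genes tested, 16.1% were called higher and 15.7% lower in this comparison, 31.8% in all. The median log2 fold change was 0.02 over the members and 0.02 over all genes. The genes that rose encode A20 and its adaptor ABIN1, on the side of chain removal, and Pellino-1, a ligase of Toll-like and interleukin-1 receptor signalling that builds chains. TRAF6 and its conjugating enzymes were not among them. Marker levels moved with stimulation too. The NK cell sum, mostly Gzmb, was lower in stimulated libraries, as given above. In wild-type cells Gzmb, Prf1, Ncr1, Klrb1c and Eomes of that list fell, whereas Tbx21 (log2 0.75, adjusted p = 6.91e-05) and Klrk1 (0.32, adjusted p = 0.0473) rose. The neutrophil and mast cell sum went from 26.4 to 30.5 CPM up to 69.8 to 105 CPM in wild-type and from 15.9 to 27.3 up to 69.7 to 109 CPM in Mirc11-/- libraries. The macrophage and monocyte sum went from 8.90 to 11.3 up to at most 19.4 CPM and from 5.17 to 9.38 up to 11.3 to 15.3 CPM. Ighm, a gene of the marker list that is otherwise not reported here, rose by log2 0.87 (adjusted p = 5.96e-05) and 0.65 (adjusted p = 0.000339), and does not stand for that list. Their part in the stimulation results was not tested.

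Tnfaip3 (chr10:19000910-19015657, minus strand) encodes A20, the deubiquitinase and ligase that restrains NF-kappaB. It measured 162.8, 155.4 and 138.2 CPM in the unstimulated wild-type libraries of replicates 1 to 3 and 334.3, 332.3 and 371.0 CPM in the stimulated ones. Every stimulated library lay above every unstimulated one, and 49% of all genes had no overlap in either direction. The rise was 2.27-fold (log2 1.19 ± 0.107 SE, adjusted p = 3.19e-06), the largest among the 10 genes, and the call held in all alternative settings tried.

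Tnip1 (chr11:54910785-54962917, minus strand), the ubiquitin-binding adaptor that brings A20 to its substrates, measured 70.1, 67.7 and 67.0 CPM without and 118.5, 119.7 and 121.7 CPM with stimulation. The groups did not overlap and each was tight. The rise was 1.76-fold (log2 0.81 ± 0.0839 SE, adjusted p = 1.09e-05). Peli1 (chr11:21091291-21150323, plus strand) measured 40.2, 41.5 and 36.5 CPM without and 59.1, 58.9 and 60.4 CPM with stimulation, again with no overlap. It rose 1.51-fold (log2 0.59 ± 0.0997 SE, adjusted p = 0.000546). With the vomeronasal level, which also rose with stimulation, as a covariate, the estimate for Peli1 was 0.43 and no longer passed the test (adjusted p = 0.0619), while Tnfaip3 and Tnip1 stayed past it. The share of all genes called fell from 31.8% to 22.1% in that fit, and the SE of Peli1 was 0.158.

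The other 7 genes had small estimates with intervals that bound them. Tax1bp1 (chr6:52713729-52766780, plus strand), which encodes a further adaptor of A20 and an autophagy receptor, measured 364.7, 383.9 and 340.2 CPM without and 418.8, 440.6 and 391.8 CPM with stimulation. Its groups did not overlap, but the log2 change of 0.20 (95% interval 0.00 to 0.40) did not pass the test (adjusted p = 0.124). Groups without overlap were common here, at 49% of all genes. Traf6 (chr2:101678429-101701669, plus strand), the ligase itself, measured 66.1, 62.2 and 64.2 CPM without and 57.8, 59.8 and 59.1 CPM with stimulation. These groups did not overlap either, at a log2 change of -0.12 (-0.27 to 0.02, adjusted p = 0.194).

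Ube2n (chr10:95515145-95545657, plus strand) and Ube2v1 (chr2:167607638-167632095, minus strand), the enzyme pair that supplies ubiquitin to TRAF6, changed by log2 -0.12 (-0.33 to 0.10, adjusted p = 0.408) and -0.13 (-0.34 to 0.08, adjusted p = 0.347). Itch (chr2:155133509-155226855, plus strand), the ligase that works with A20, changed by -0.03 (-0.18 to 0.12, adjusted p = 0.767). Rnf11 (chr4:109451098-109484728, minus strand), the small ligase of the same complex, changed by 0.07 (-0.15 to 0.28, adjusted p = 0.653). Cblb (chr16:52031225-52208048, plus strand), a ligase that restrains receptor signalling in T and NK cells, changed by -0.05 (-0.24 to 0.15, adjusted p = 0.739). With the vomeronasal covariate the estimate of Rnf11 was 0.38 (adjusted p = 0.0550), and those of Ube2v1 and Ube2n turned to 0.13 and 0.09 (adjusted p = 0.565 and 0.734).

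In Mirc11-/- cells the genes called were again Tnfaip3, Tnip1 and Peli1, 3 higher and 0 lower, against 23.5% of all genes called higher, 22.1% lower and 45.6% in all. The median log2 change was -0.01 over the members and 0.03 over all genes. Tnfaip3 measured 181.3, 145.7 and 141.0 CPM without and 379.8, 402.6 and 383.2 CPM with stimulation, a 2.49-fold rise (log2 1.32 ± 0.107 SE, adjusted p = 8.83e-07) with wide separation of the groups. Tnip1 measured 50.8, 47.9 and 53.4 CPM without and 82.8, 100.8 and 99.4 CPM with stimulation, where replicate 1 was the lowest of the stimulated libraries and still above all unstimulated ones. It rose 1.86-fold (log2 0.90 ± 0.0849 SE, adjusted p = 3.35e-06). Peli1 measured 41.6, 44.8 and 41.8 CPM without and 84.0, 67.4 and 63.1 CPM with stimulation, replicate 1 standing highest. It rose 1.67-fold (log2 0.74 ± 0.100 SE, adjusted p = 6.26e-05), and with the vomeronasal level, itself highest in replicate 1, entered as a covariate its estimate was 0.42 ± 0.275 SE (adjusted p = 0.396). The share of all genes called fell from 45.6% to 3.21% in that fit.

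Ube2n lay nearest to the threshold among the remaining genes in Mirc11-/- cells. It measured 58.5, 69.9 and 55.8 CPM without and 44.5, 55.6 and 54.9 CPM with stimulation, so every stimulated library was below every unstimulated one, as in 54% of all genes in either direction. The log2 change was -0.25 (-0.47 to -0.03, adjusted p = 0.0600). It passed without replicate 3 of the unstimulated or replicate 2 of the stimulated Mirc11-/- libraries (adjusted p = 0.0375 and 0.0370) and with the replicate number as a block (adjusted p = 0.0341), whereas with the vomeronasal covariate the estimate turned to 0.15 (adjusted p = 0.795). That covariate also turned Ube2v1 to 0.34 (adjusted p = 0.455), Rnf11 to 0.56 (adjusted p = 0.184) and Cblb to -0.11 (adjusted p = 0.839). Of the 31-base stretches of Ube2n 10.1% occur elsewhere, mostly in the pseudogene Ube2n-ps1, which fell to 10.9 ± 0.970 CPM in stimulated Mirc11-/- libraries from 23.8 ± 1.24 CPM. With the counts of Ube2n and Ube2n-ps1 summed the log2 change was -0.45 (adjusted p = 0.00220). Traf6 changed by -0.12 (adjusted p = 0.185), Itch by -0.13 (adjusted p = 0.148), Cblb by 0.17 (adjusted p = 0.142), Ube2v1 by -0.17 (adjusted p = 0.192), Rnf11 by -0.08 (adjusted p = 0.562) and Tax1bp1 by 0.06 (adjusted p = 0.645). DESeq2 called Itch lower (-0.15, adjusted p = 0.0259).

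**Figure D2:**
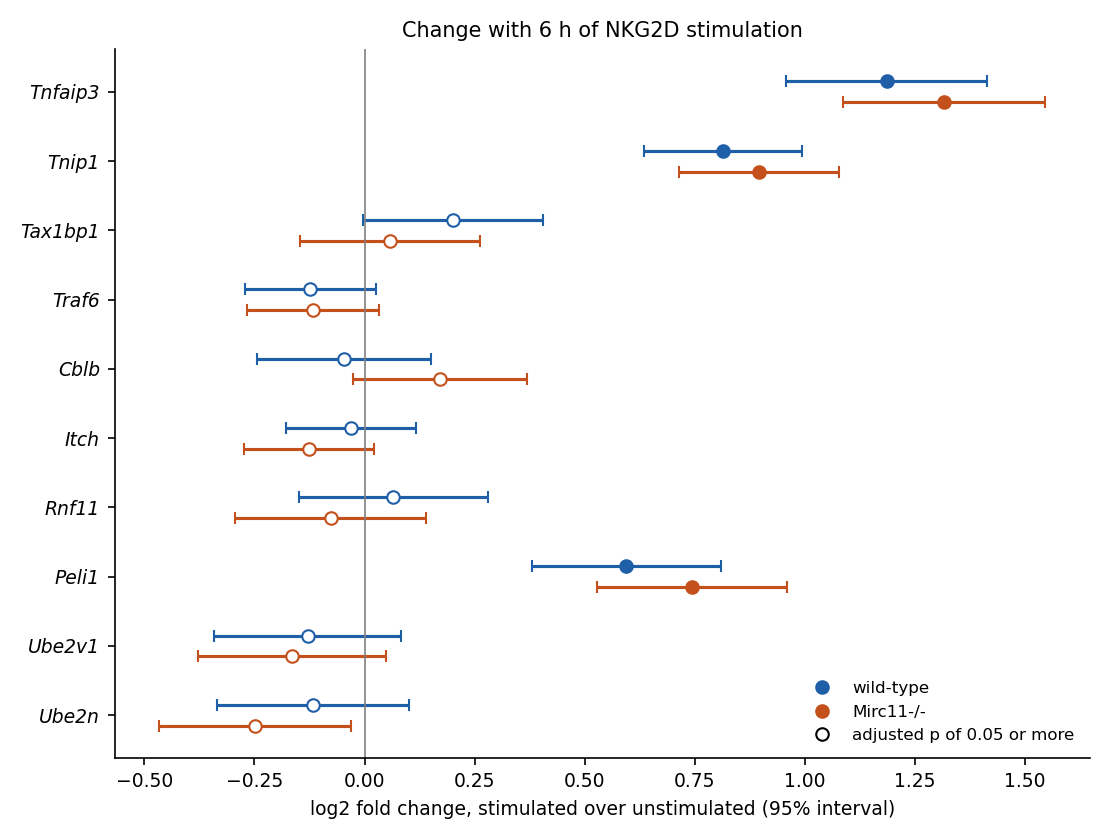
Log2 fold change with stimulation for each gene in wild-type and in Mirc11-/- cells, with 95% intervals and filled points for adjusted p under 0.05. Tnfaip3, Tnip1 and Peli1 lie clear of 0 in both genotypes, and the intervals of the 2 genotypes overlap for every gene.

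Whether the response to stimulation differed by genotype was tested directly as an interaction. Of the 10 genes 0 passed, and 0 reached an unadjusted p under 0.05, while 2 of all genes tested (0.0115%) passed and 10.6% reached an unadjusted p under 0.05. The response in Mirc11-/- minus wild-type cells was estimated at log2 0.13 for Tnfaip3 (-0.19 to 0.45, adjusted p = 0.710), 0.08 for Tnip1 (-0.17 to 0.34, adjusted p = 0.775) and 0.15 for Peli1 (-0.15 to 0.45, adjusted p = 0.653). The largest estimate was that of Cblb, 0.22 (-0.06 to 0.50, adjusted p = 0.508), and that of Traf6 was 0.01 (adjusted p = 0.985). Neither DESeq2 nor limma voom called a member.

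Between genotypes, 1 member (Tnip1) was lower in Mirc11-/- cells without stimulation, 2 (Tnip1 and Tax1bp1) with it, and 3 (these and Ube2v1) on average over both treatments, and 0 members were called higher. The share of all genes called lower was 0.796% without stimulation, 5.13% with it and 4.91% on average, the shares called higher were 0.309%, 3.89% and 2.45%, and those in either direction 1.11%, 9.02% and 7.36%. The median log2 difference over the members was -0.07, -0.03 and -0.08, against 0.01, 0.02 and 0.02 over all genes. Averaging uses all 12 libraries, so the average is not independent of the separate comparisons.

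Tnip1 was lower in every Mirc11-/- library than in every wild-type library of the same treatment. Of all genes, 17.8% had no overlap between genotypes in either direction without stimulation and 32.6% with it. In unstimulated cells the mean was 50.7 ± 2.77 CPM (SD, n = 3) in Mirc11-/- against 68.3 ± 1.62 CPM in wild-type, a log2 difference of -0.43 ± 0.0845 SE (adjusted p = 0.0233). In stimulated cells it was 94.3 CPM (82.8 to 100.8 over 3 libraries) against 120.0 CPM (118.5 to 121.7), a difference of -0.35 ± 0.0835 (adjusted p = 0.0245). Averaged over treatments the difference was -0.39 ± 0.0594 (adjusted p = 0.00138), and this call held without any of the 12 libraries. The call in unstimulated cells was lost without any one of the 6 unstimulated libraries, with adjusted p between 0.0687 and 0.168, and that in stimulated cells without wild-type replicate 2 (adjusted p = 0.0869) or 3 (adjusted p = 0.0908).

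Tax1bp1 was also lower in all Mirc11-/- libraries of each treatment, against the same shares of 17.8% and 32.6% of all genes without overlap. Unstimulated Mirc11-/- libraries held 295.0, 293.5 and 295.6 CPM, and the wild-type ones, given above, were all higher. The log2 difference of -0.30 ± 0.0949 did not pass (adjusted p = 0.217). Stimulated Mirc11-/- libraries held 271.2, 313.3 and 335.8 CPM, with a difference from wild-type of -0.44 ± 0.0950 (adjusted p = 0.0153) that was lost without wild-type replicate 2 (-0.41, adjusted p = 0.0750). The average difference was -0.37 ± 0.0672 (adjusted p = 0.00433) and held without any of the 12 libraries.

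Ube2v1 measured 76.7, 76.6 and 77.3 CPM in unstimulated wild-type, 65.0, 66.1 and 61.5 in unstimulated Mirc11-/-, 68.4, 75.4 and 67.2 in stimulated wild-type and 47.4, 63.7 and 60.7 CPM in stimulated Mirc11-/- libraries. Genotypes did not overlap within either treatment, as in 17.8% of all genes without stimulation and 32.6% with it. The average difference was log2 -0.28 ± 0.0702 (adjusted p = 0.0284), which held in 4 of the 12 analyses with a library left out, with adjusted p up to 0.0794 in the others. With the counts of the overlapping Gm20431 added, the average was -0.17 (adjusted p = 0.151). In unstimulated cells the difference was then -0.07 (adjusted p = 0.952), against -0.26 (adjusted p = 0.358) before. In stimulated cells it was -0.27 (adjusted p = 0.0887), against -0.30 (adjusted p = 0.0716). Gm20431 itself measured 37.4 ± 8.82 CPM in unstimulated Mirc11-/- and 29.5 ± 6.96 CPM in unstimulated wild-type libraries. How reads were divided between these genes was not tested. The 7 other members were not called by edgeR in any genotype comparison with all 12 libraries. Rnf11 was called lower in stimulated cells without stimulated wild-type replicate 1 (-0.36, adjusted p = 0.0451). Cblb was called lower on average without stimulated Mirc11-/- replicate 1 (-0.19, adjusted p = 0.0405). DESeq2 called Cblb lower in unstimulated cells (log2 -0.26, adjusted p = 0.0339) and on average (-0.16, adjusted p = 0.0264), and Ube2v1 lower in stimulated cells (-0.32, adjusted p = 0.0367).

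Tnfaip3 differed between genotypes by log2 0.04 without stimulation (-0.19 to 0.26, adjusted p = 0.988) and 0.17 with it (-0.06 to 0.39, adjusted p = 0.287). Its stimulated Mirc11-/- libraries were all above the stimulated wild-type ones, at 389 ± 12.3 against 346 ± 21.8 CPM (SD, n = 3). Groups without overlap made up 32.6% of all genes in that comparison and 17.8% in unstimulated cells. Traf6 was the member closest to equal, at -0.02 without (-0.17 to 0.13, adjusted p = 0.992) and -0.01 with stimulation (-0.16 to 0.14, adjusted p = 0.921), and its 4 group means ran from 58.4 ± 3.27 to 64.2 ± 1.91 CPM. Itch differed by 0.08 (-0.07 to 0.23) and -0.02 (-0.16 to 0.13).

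Cblb was lower in all 3 unstimulated Mirc11-/- libraries (358.0, 311.5 and 318.9 CPM) than in wild-type ones (400.7, 377.0 and 400.5 CPM), at log2 -0.25 (-0.45 to -0.06), which did not pass (adjusted p = 0.322). In stimulated cells its genotypes overlapped, at -0.04 (-0.23 to 0.16, adjusted p = 0.816). Peli1 was higher in all 3 stimulated Mirc11-/- libraries, at log2 0.27 (0.05 to 0.48, adjusted p = 0.0959). Rnf11 averaged -0.19 (adjusted p = 0.116) and Ube2n 0.05 (adjusted p = 0.696).

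**Figure D3:**
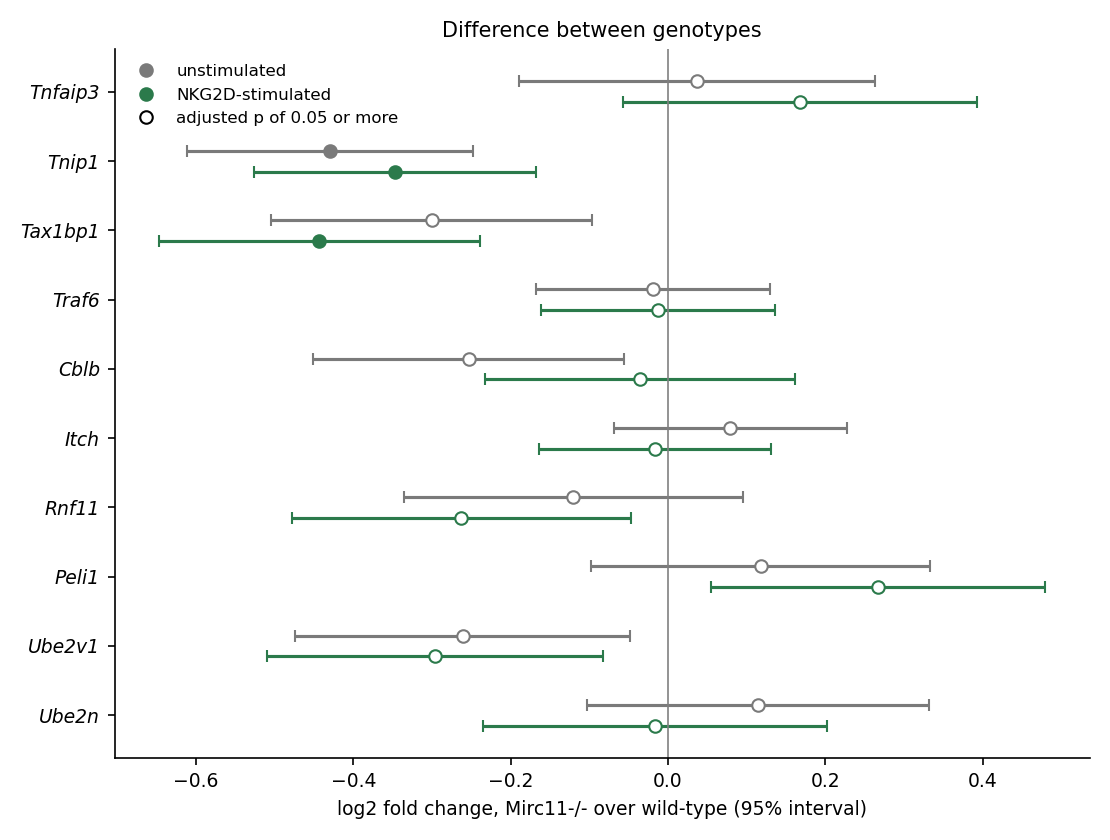
Log2 difference of Mirc11-/- minus wild-type for each gene, without stimulation and with it, with 95% intervals and filled points for adjusted p under 0.05. Tnip1 is filled in both comparisons and Tax1bp1 in the stimulated one, all below 0.

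Several measured quantities moved with genotype in these libraries. When the vomeronasal level entered the fit as a covariate, the average differences were -0.28 for Tnip1 (adjusted p = 0.124), -0.28 for Tax1bp1 (adjusted p = 0.206) and -0.14 for Ube2v1 (adjusted p = 0.648), and those in stimulated cells -0.14 for Tnip1 and -0.28 for Tax1bp1 (adjusted p = 0.950 for both). In that fit the share of all genes called fell from 7.36% to 0.974% on average and from 9.02% to 0.172% in stimulated cells. The difference of Tnip1 in unstimulated cells, where the vomeronasal levels of the genotypes overlapped, was -0.41 in that fit (adjusted p = 0.00874). Among cell markers, the summed T cell list of 7 genes ran from 38.2 to 72.2 CPM in wild-type and from 67.4 to 113 CPM in Mirc11-/- libraries, and the dendritic cell list of 7 genes from 76.5 to 131 and from 160 to 207 CPM. The latter sum was mostly Itgax, with means of 82.9 CPM in unstimulated wild-type and 184 CPM in unstimulated Mirc11-/- libraries. With stimulation the Itgax means were 76.4 and 148 CPM. The NK cell sum was 6433 to 7734 CPM in stimulated wild-type and 3396 to 5498 CPM in stimulated Mirc11-/- libraries, with no overlap, and overlapped between genotypes without stimulation. Their part in the genotype differences was not tested.

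The members lower without the cluster were set beside their seed matches. Tnip1 and Tax1bp1, with the largest average differences, carried 0 sites matching bases 2 to 8. Tnfaip3 and Ube2n, with 3 sites each, differed on average by log2 0.10 (-0.06 to 0.26) and 0.05 (-0.10 to 0.20), and Itch, with 2, by 0.03 (-0.07 to 0.14). The 4 genes with 1 site ranged from -0.28 for Ube2v1 to -0.02 for Traf6. Among the 10 genes the estimates above 0 were those of Tnfaip3, Ube2n, Itch and Peli1, and none of these passed the test.

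**Figure D4:**
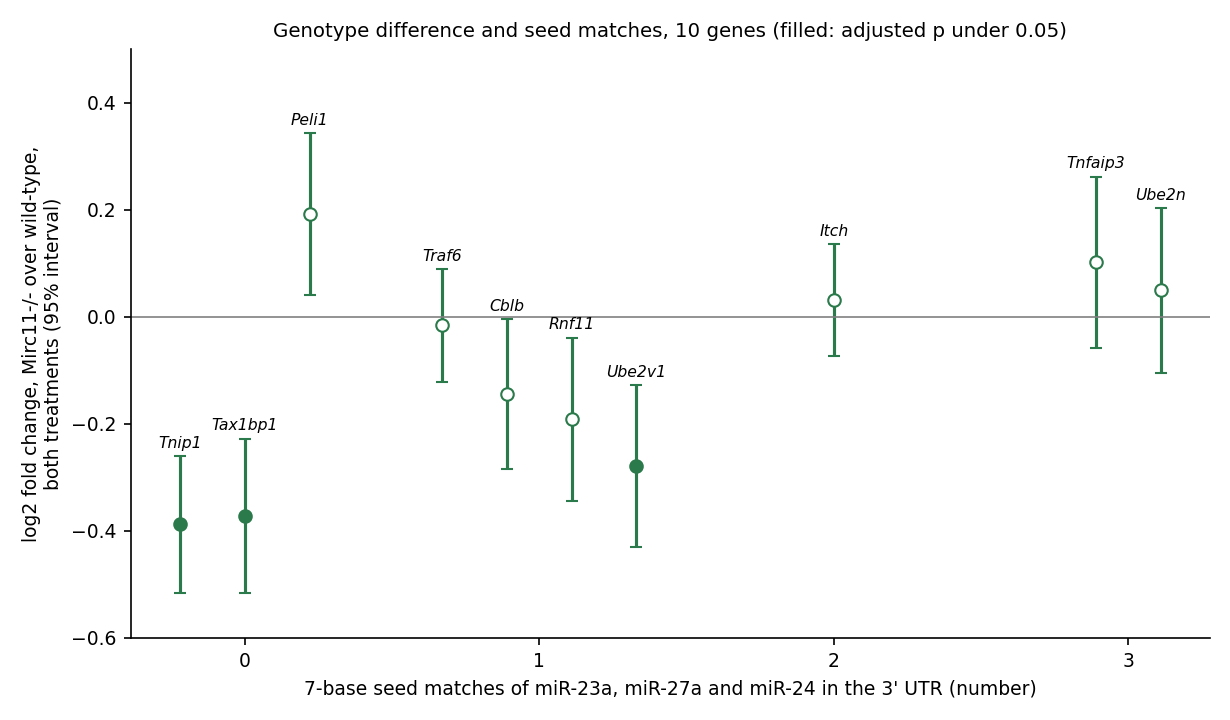
Average log2 difference of Mirc11-/- minus wild-type against the number of seed matches (bases 2 to 8) in the 3′ UTR, with 95% intervals; genes with the same number are drawn side by side around it. The filled points, adjusted p under 0.05, are Tnip1 and Tax1bp1 at 0 sites and Ube2v1 at 1 site, and the genes with 2 or 3 sites lie near 0.

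Because Tnip1 and Tax1bp1 bring A20 to its substrates, the balance of these messages was described as a ratio of levels per kilobase within each library. Tnfaip3 over Tnip1 was 1.01 to 1.14 in unstimulated wild-type, 1.36 to 1.49 in stimulated wild-type, 1.29 to 1.75 in unstimulated Mirc11-/- and 1.89 to 2.25 in stimulated Mirc11-/- libraries. The stimulated Mirc11-/- libraries were above all others, and the unstimulated Mirc11-/- range reached over that of stimulated wild-type. Tnfaip3 over Tax1bp1 was lowest in unstimulated wild-type libraries (0.560 to 0.617) and highest in stimulated Mirc11-/- ones (1.58 to 1.94), with 1.04 to 1.31 in stimulated wild-type and 0.660 to 0.850 in unstimulated Mirc11-/- libraries. Ube2n over Ube2v1 was 0.459 to 0.497 over the 6 wild-type and 0.563 to 0.682 over the 6 Mirc11-/- libraries, subject to the shared sequence of both genes. These ratios combine differences already given and carry no test.

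**Figure D5:**
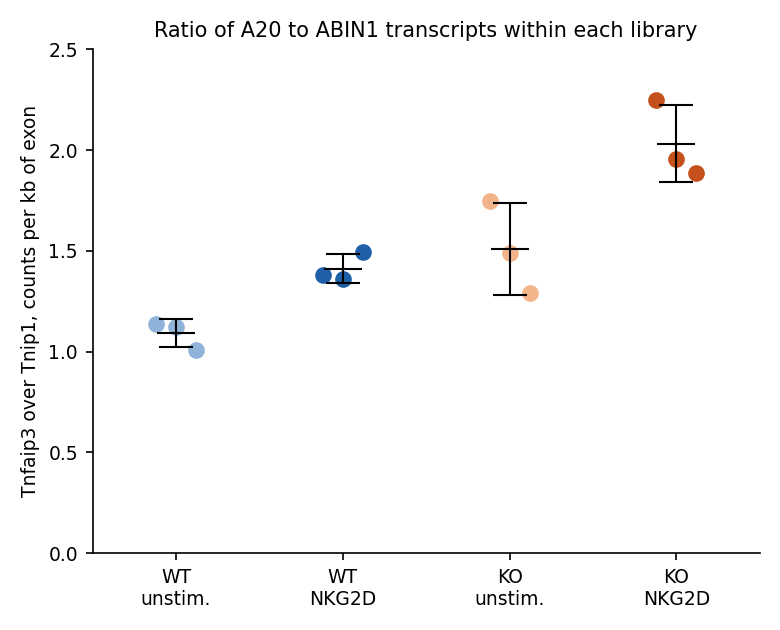
Ratio of Tnfaip3 to Tnip1, in CPM per kilobase of merged exons, in each library by group, with lines for the mean ± SD. Means are 1.09 and 1.41 in unstimulated and stimulated wild-type and 1.51 and 2.03 in unstimulated and stimulated Mirc11-/- libraries.

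The surrounding pathway was read from 5 lists of 66 genes, 62 of them tested, that leave out the members. With stimulation 14 rose and 10 fell in wild-type cells and 14 rose and 19 fell in Mirc11-/- cells, with medians of 0.05 and -0.05. Over all genes tested, 16.1% rose and 15.7% fell in wild-type and 23.5% rose and 22.1% fell in Mirc11-/- cells, so the count of 14 higher in the latter is near the share of all genes. Among the 11 ubiquitin readers and A20 partners, 5 rose and 1 fell in wild-type and 4 rose and 2 fell in Mirc11-/- cells. Those with the largest change were Tnip3, which encodes ABIN3, at log2 1.48 (adjusted p = 5.77e-05) and 2.22 (adjusted p = 3.64e-06), and Calcoco1 at 1.43 and 1.61 (adjusted p = 4.11e-07 and 9.97e-08). Among the 12 TRAF genes and receptor adaptors 3 rose and 2 fell in wild-type and 5 rose and 2 fell in Mirc11-/- cells. The 14 ligases and enzymes of lysine-63 and linear chains divided into 3 up and 1 down, and 3 up and 5 down. The 12 deubiquitinases gave 2 up and 3 down, and 2 up and 5 down.

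Of the 13 CBL and NEDD4 ligases and their regulators, relatives of Cblb and Itch, 1 rose and 3 fell in wild-type and 0 rose and 5 fell in Mirc11-/- cells. The largest fall was that of Ubash3a, a phosphatase-like protein that binds CBL proteins, from 9.91 ± 0.812 to 3.72 ± 0.412 CPM in wild-type and from 12.7 ± 0.899 to 3.52 ± 0.240 CPM in Mirc11-/- cells (log2 -1.41 and -1.85, adjusted p = 4.58e-06 and 3.49e-07). In the interaction 0 of the 62 genes were called.

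Between genotypes the listed genes that passed were all lower in Mirc11-/- cells, 1 of 62 without stimulation, 7 with it and 9 on average. Over all genes 0.796%, 5.13% and 4.91% were called lower and 0.309%, 3.89% and 2.45% higher. The listed genes were read in the main fit only, so their calls were not checked in the alternative settings. In stimulated cells the share of all genes called was 9.02% in the main fit. It was 1.28% with only those groups fitted and 0.172% with the vomeronasal covariate. On average it was 7.36% and, with that covariate, 0.974%. Tnip3, a relative of Tnip1, measured 1.80 ± 0.115 against 4.40 ± 0.802 CPM without stimulation (log2 -1.28, adjusted p = 0.00961), and its average difference was -0.91 (adjusted p = 0.00150). Sqstm1, which encodes the ubiquitin reader and TRAF6-binding protein p62, measured 665 ± 105 CPM in stimulated Mirc11-/- against 1007 ± 91.6 CPM in wild-type libraries (log2 -0.60, adjusted p = 0.0370). Optn, the ubiquitin reader optineurin, differed by -0.46 (adjusted p = 0.0214) and Ubash3b, a relative of Ubash3a, by -0.40 (adjusted p = 0.0181) in stimulated cells. Averaged, Sqstm1 differed by -0.54 (adjusted p = 0.0106) and Optn by -0.31 (adjusted p = 0.0238).

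The genes most alike in pattern were ranked by Pearson correlation of log2 CPM over the 12 libraries among 7064 genes, a description in which all points share the 4 groups. For Tnfaip3 they were Bend4 (0.990), Calcoco1 (0.989) and Parp8 (0.989), for Tnip1 Bcl2a1d (0.987), Dnm2 (0.986) and Cxxc5 (0.986), and for Peli1 Nt5e (0.981), Bcl2l11 (0.980) and Ric1 (0.977). For Tax1bp1 they were Serpinb6a (0.975), Klrg1 (0.973) and Fcgr3 (0.957). The other members had lower highest values, 0.946 for Ube2v1 with Gadd45gip1, 0.934 for Traf6 with Lrrc20, 0.929 for Rnf11 with Dhps, 0.928 for Ube2n with Nsmce4a, 0.916 for Cblb with Mink1 and 0.902 for Itch with Gimap3. Between members, Tnfaip3 correlated at 0.931 with Peli1 and at 0.856 with Tnip1 over the 12 libraries, and at 0.04 and 0.19 after the group means were removed. Ube2n and Ube2v1 correlated at 0.474 over the libraries and at 0.811 within groups. Other pairs came close to this size within groups: Tnip1 and Peli1 at -0.790, Tax1bp1 and Ube2v1 at 0.757, and Cblb and Ube2n at -0.750. Stimulated Mirc11-/- replicate 1, with the most vomeronasal counts, was lowest in Ube2n (44.5 CPM) and Ube2v1 (47.4 CPM) and highest in Peli1 (84.0 CPM). Its part in these correlations was not tested.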

How the data were processed

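RNA from 12 libraries was sequenced with a TruSeq library, per the labels' protocols. The submitters' processing notes name GRCm38 as the genome, and RSEM 1.3.0, Bowtie2 2.2.8, Trim Galore 0.4.1 and bcl2fastq as tools. The table deposited by the authors holds expected counts that are whole numbers; annotation release and strand setting are not given in the sources used here. Genes were filtered (filterByExpr), scaled (TMM) and tested with edgeR 4.0.16 (R 4.3.3; glmQLFit with robust estimation, glmQLFTest), 1 mean per group over all 12 libraries. Tests are two-sided, with Benjamini-Hochberg adjustment over 17457 genes and a threshold of 0.05. Members and lists were chosen with earlier results of these data known. All members are named, with up to 3 listed genes per comparison (past the threshold, mean log2 CPM of at least 2, largest change) and the 3 genes most correlated with each member (mean log2 CPM of at least 4). Alternatives were other scaling, filters, DESeq2 1.42.0, limma 3.58.1, only the groups compared, a replicate block, the vomeronasal level as covariate and each library left out; summing sequence-sharing genes was added after seeing the data. Same-numbered wild-type libraries deviated together (correlations 0.214 to 0.383), as did Mirc11-/- replicates 1 (0.238) and 3 (0.399) but not 2 (-0.07). Pairs across genotypes ran from -0.31 to 0.278. The sample titles give only replicate numbers, so these values do not settle whether libraries were paired, and the main fit used no block. The fit was also run on simulated counts with changes in the stimulated wild-type group only and no vomeronasal shift, so this does not check the genotype calls. The result of 1 marker list is not reported here.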

Additional observations from a re-analysis of the deposited data

How the results depend on the processing

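Over 60 estimates and 1300 alternative values, 1209 kept their direction and side of the threshold, 27 lost the call, 15 gained one and 49 turned direction. Members called without stimulation between genotypes were 1 (1.11% of all genes), and 2 with DESeq2 (Tnip1 and Cblb, with 2% of all genes called). In stimulated cells 2 were called, but 0 when only those 2 groups were fitted (adjusted p = 0.125 for Tnip1 and 0.107 for Tax1bp1) and 0 with the vomeronasal covariate, which also left 0 of the 3 averaged calls. The share of all genes called in stimulated cells was 9.02% in the main fit, 1.28% with only those groups and 0.172% with the covariate. For the average it was 7.36% in the main fit and 0.974% with the covariate. With a library left out, members called ranged from 3 to 4 for stimulation in wild-type cells, 3 to 4 in Mirc11-/- cells, 0 to 0 for the interaction, 0 to 3 between genotypes without stimulation, 0 to 3 with it and 2 to 4 averaged. The shares of all genes called ranged, in that order, from 21.5% to 38.7%, 36.9% to 45.8%, 0% to 0.104%, 0.393% to 2.28%, 1.84% to 13.2% and 3.71% to 8.17%. The highest count without stimulation came without stimulated Mirc11-/- replicate 1, the library with the most vomeronasal counts, which added Tax1bp1 and Ube2v1 (adjusted p = 0.0289 and 0.0431). The replicate number was fitted as a block within genotype for stimulation and the interaction, and as a block shared across genotypes for the genotype comparisons. With these blocks the counts were 3, 4 (Ube2n added), 0, 1, 2 and 3 in the same order, and no other call changed. The shares of all genes called with them were 34.1%, 47.7%, 0.0745%, 1.01%, 12.3% and 8.32%. The estimates that turned direction were past the threshold neither before nor after, and their log2 values follow. With the vomeronasal covariate they were, for stimulation, Ube2v1 0.13 and Ube2n 0.085 in wild-type and Cblb -0.11, Rnf11 0.56, Ube2v1 0.34 and Ube2n 0.15 in Mirc11-/- cells. For the interaction they were Tax1bp1 0.011, Rnf11 0.18, Peli1 -0.015, Ube2v1 0.21 and Ube2n 0.063, and between genotypes Traf6 0.029, Rnf11 0.081 and Ube2n 0.19 in stimulated cells and Traf6 0.0064 on average. With no composition factor, Ube2v1 was 0.027 in the interaction, Traf6 0.053, Cblb 0.034, Itch 0.0502 and Ube2n 0.046 between genotypes in stimulated cells and Traf6 0.016 on average. With no filter, Tax1bp1 was -0.034 for stimulation of Mirc11-/- cells, Traf6 -0.051 in the interaction, and Itch -0.025 and Ube2n -0.0039 on average. With the stricter filter, Traf6 was 0.018, Itch 0.014 and Ube2n 0.013 in stimulated cells and Traf6 0.00068 on average. DESeq2 gave Traf6 -0.0104 in the interaction, and summing the counts of sequence-sharing genes gave Ube2n -0.052 on average. With a library left out, Rnf11 ranged from -0.0204 to 0.14 for stimulation in wild-type and Tax1bp1 from -0.0195 to 0.14 in Mirc11-/- cells, and in the interaction Traf6 from -0.046 to 0.041 and Ube2v1 from -0.13 to 0.093. Between genotypes the ranges were -0.097 to 0.10 for Tnfaip3 and -0.041 to 0.00196 for Traf6 without stimulation, -0.065 to 0.011 for Traf6, -0.042 to 0.0029 for Itch and -0.081 to 0.079 for Ube2n with it, and -0.0062 to 0.092 for Ube2n on average.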
